A study of Danio rerio with 11 samples.

Results

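The sperm methylome was compared with the methylomes of 4 adult female tissues, eye, brain, heart and liver, to find which methylated regions of the male germline were also marked in differentiated somatic tissue and which regions of those tissues were unmarked in sperm. The members were the 96505 peaks of the sperm list, of 816382 peaks in all 9 lists of the series, and the peaks of the 4 adult lists. A sperm peak was called shared with a tissue when the intervals overlapped by 1 bp or more. By this rule 30164 sperm peaks, 31.3% of the list, lay in no adult tissue, and 6650 eye, 16424 brain, 7097 heart and 7034 liver peaks were absent from sperm.

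The fish were untreated Tübingen/AB animals. Sperm was pooled from several adult males, and eyes, brains, hearts and livers were dissected from one pool of adult females, so germline and somatic samples also differ in sex. The embryo lists used to place both classes came from pools of one-cell embryos, of embryos at the mid-blastula transition (mbt), of larvae at 3 days post-fertilization (3dpf), and of larvae at 3dpf treated from the one-cell stage with 400 µM methotrexate (MTX-3dpf), a folate antagonist. Lane 5 held sperm, one-cell and mbt, whereas lane 4 held eye, heart and liver. Each of these lanes had its own methylation-poor brain library as the control for peak calling, and the brain list joined reads of both lanes. The paper lists 3dpf and MTX-3dpf in a further lane, each with a methylation-poor control of its own. Stage, lane and control library therefore cannot be told apart between 3dpf and the earlier embryo lists. Lane, control library, sex and tissue therefore cannot be told apart between sperm and eye, heart or liver, and every condition had 1 library, so no difference below has a replicate check and no test of a difference could be run.

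In vertebrates, methyl groups are placed on cytosines of CpG dinucleotides by DNA methyltransferases, and most CpGs outside CpG-rich promoters are methylated in most cell types. Sperm DNA is compacted and transcriptionally silent, and in zebrafish its methylation pattern is passed on to the embryo, while somatic tissues acquire their own patterns as they differentiate. MBD-seq captures DNA fragments with a methyl-CpG binding domain, so a peak marks a stretch in which methylated CpGs are dense, and a stretch with few CpGs can be methylated without giving a peak.

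Each interval in the lists reaches 100 bp to either side of a peak center. Its score comes from the peak caller, has no stated unit and was used only to rank peaks within a list. In embryo regions examined by bisulfite sequencing, the paper saw no relation of this score to the amount of CpG methylation. Strong, high-scoring and low-scoring peaks below are therefore named by score and not by how methylated they are. The lists differed in length (96505 peaks in sperm, against 79008 in brain, 50170 in liver, 50110 in heart and 45785 in eye). The main comparisons were therefore repeated with the 45785 highest-scoring peaks of each list, called equal numbers below. At equal numbers, absent means absent from the cut list, so such a peak can overlap a lower-scoring peak outside the cut. Read depth is not held in these lists. The paper reports about as many reads for brain in each of its lanes as for heart or liver in their single lane. Of the adult tissues, eye had the fewest reads. The brain list joined both lanes, and the part of read depth in the length of a list was not tested. Shares are given where useful with Wilson 95% confidence intervals, which cover counting error over peaks only.

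Most sperm peaks fell at either end of the range of sharing. Of the 96505 sperm peaks, 34429 (35.7%, 95% CI 35.4 to 36.0) overlapped a peak in all 4 adult tissues and 30164 (31.3%, 95% CI 31.0 to 31.5) overlapped none. A further 20356 (21.1%) lay in 1 tissue, 4872 in 2 and 6684 in 3. Taken one tissue at a time, 64.9% of the sperm peaks were found in brain, 44.7% in liver, 44.6% in heart and 40.6% in eye. At equal numbers the germline class was smaller and the common class larger, with 9100 sperm peaks (19.9%, 95% CI 19.5 to 20.2) in no tissue and 26067 (56.9%) in all 4.

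Brain alone accounted for nearly all sperm peaks that lay in a single tissue. Of the 20356 such peaks, 19406 (95.3%) were in brain, against 425 in liver, 358 in heart and 167 in eye. With brain set aside, 49570 sperm peaks (51.4%) had no counterpart in eye, heart or liver, so the count of germline peaks rests on the brain list. Leaving out eye, heart or liver instead gave between 30331 and 30589 such peaks. At equal numbers brain held 1663 of the 3328 sperm peaks found in a single tissue (49.97%), and sperm no longer overlapped brain most. The top sperm peaks were then found in 66.4% in brain, against 68.9% in eye, 70.7% in heart and 70.8% in liver. The brain list was the longest of the 4 and the only one with reads from the lane of sperm, and the part of either in this sharing was not tested.

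Sperm peaks without an adult counterpart had low scores. Their median score was 23.6 (interquartile range 12.95 to 46.8), against 59.9 for sperm peaks in 1 tissue, 104 in 2, 128 in 3 and 216 (interquartile range 126 to 302) in all 4 tissues. The sperm list was ranked by score and cut into 10 equally long deciles. In the lowest decile 75.5% of the sperm peaks lay in no tissue and 4.13% in all 4, and in the ninth decile 3.38% lay in no tissue and 85.2% in all 4. The highest decile turned back slightly, with 542 peaks (5.62%) in no tissue. Sperm peaks in a single tissue were most frequent in the middle of the range, with 39.5% in the fifth decile. The highest-scoring 45785 sperm peaks, set against the complete adult lists in a comparison added after the data were seen, left 3136 (6.85%) in no tissue.

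**Figure D1:**
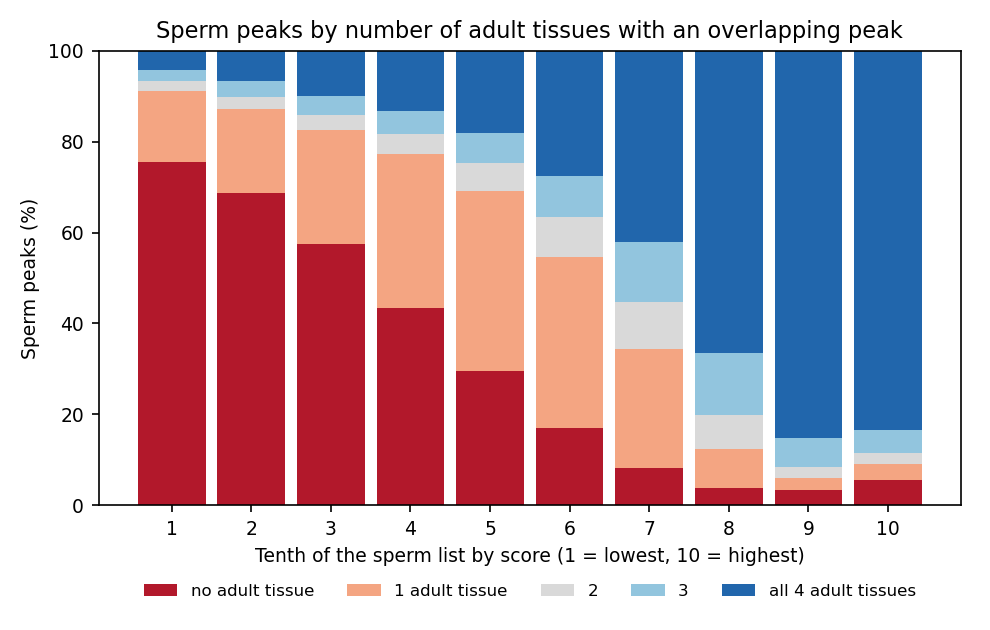
Percentage of sperm peaks (y axis) by the number of adult tissues with an overlapping peak, for each decile of the sperm list by score (x axis, lowest to highest). The part in no adult tissue was 75.5% in the lowest decile, 3.38% in the ninth and 5.62% in the highest.

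The opposite class was smaller in eye, heart and liver, where peaks absent from sperm were 14.5% of the eye list (95% CI 14.2 to 14.9), 14.2% of the heart list and 14.0% of the liver list. In brain they were 20.8% (95% CI 20.5 to 21.1). Scores here did not simply run from absent to shared. In eye the share of peaks absent from sperm was 22.5% in the lowest score decile, 9.92% in the seventh and 19.7% in the highest, and in brain it was 30.8%, 17.2% and 26.4% in the same deciles. At equal numbers 31.1% of the eye, 33.6% of the brain, 29.3% of the heart and 29.2% of the liver peaks were absent from sperm.

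The peaks absent from sperm were largely common to several tissues in eye, heart and liver, and, with all peaks, largely private in brain. Of the eye peaks absent from sperm, 49.1% were present in all other 3 tissues and 5.83% in none of them. The corresponding shares were 45.1% and 6.90% in heart and 45.8% and 9.38% in liver. Of the brain peaks absent from sperm, 20.1% were present in eye, heart and liver and 66.9% in none of them. At equal numbers brain peaks absent from sperm were no longer mostly private, with 45.7% in all other 3 tissues and 38.8% in none of them, against 49.7% to 52.5% and 5.43% to 7.76% in eye, heart and liver.

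Overlapping peaks of the 4 tissues were then joined into 86259 loci with a median width of 214 bp. Of these, 19843 were absent from sperm, and 10982 of the absent loci (55.3%) were marked in brain only. The share absent from sperm was lower the more tissues carried the locus, being 38.3% of loci in 1 tissue, 29.3% in 2, 26.7% in 3 and 8.05% in all 4. The 38270 loci in all 4 tissues thus left 3080 (95% CI 7.78 to 8.32) that were marked in every adult tissue and not in sperm, the somatic class used below. Leaving out eye, heart or liver in turn gave 3300 to 3431 loci of the remaining 3 tissues absent from sperm, and leaving out brain gave 4601.

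Which tissue was missing from a locus went with its presence in sperm. Loci of eye, heart and liver that lacked a brain peak were absent from sperm in 1466 of 3346 cases (43.8%, 95% CI 42.1 to 45.5). Loci of brain, heart and liver that lacked an eye peak were absent in 347 of 3337 cases (10.4%, 95% CI 9.41 to 11.5). Loci lacking liver or heart lay between, at 25.5% and 24.6%. At equal numbers the order at its ends was the same, with 52.0% absent without brain, 49.0% without liver, 46.8% without heart and 31.3% without eye, so brain no longer stood apart from liver and heart to that degree.

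Each of the 5 lists was next treated in the same way, since any list has some peaks of its own. At equal numbers 19.9% of the sperm peaks were in none of the other 4 lists, against 2.41% of the eye peaks, 13.1% of the brain peaks, 1.59% of the heart peaks and 2.12% of the liver peaks. Of the 33533 loci that the 4 other lists had in common, 6992 (20.9%, 95% CI 20.4 to 21.3) were missing from sperm. The same share was 1.88% for both eye and liver, 9.96% for brain and 1.56% for heart. Sperm thus had the highest value on both measures and brain the second highest, and the intervals of sperm and brain did not overlap. With all peaks, sperm was missing 8.05% of the loci common to the 4 other lists, eye 7.84%, brain 5.05%, liver 2.62% and heart 1.62%. The values of sperm and eye were then close.

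**Figure D2:**
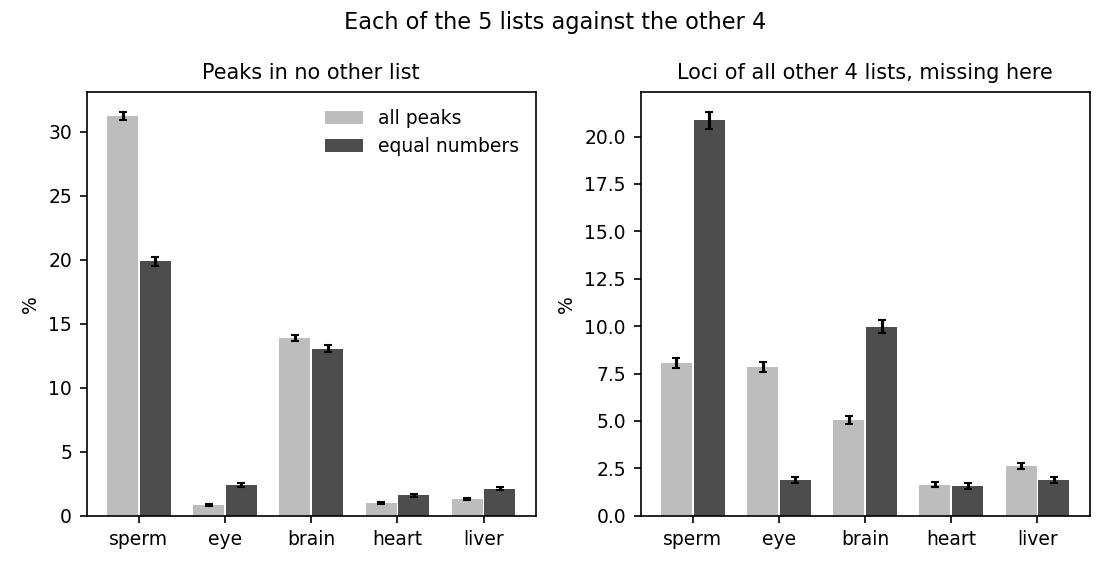
Left, percentage of peaks of each list found in none of the other 4 lists. Right, percentage of the loci common to the other 4 lists that were missing from it. Light bars are all peaks and dark bars equal numbers, with Wilson 95% intervals. At equal numbers sperm had 19.9% and 20.9%, and brain, the next, 13.1% and 9.96%.

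The order of scores at shared positions was also less alike between sperm and the tissues than among the tissues. Across peaks shared by both lists, Spearman's rho of the scores was 0.556 for sperm with eye (39135 peaks), 0.606 with heart, 0.596 with liver and 0.643 with brain (62584 peaks). Among eye, heart and liver it lay between 0.945 and 0.961, and for brain with these 3 between 0.787 and 0.814. These values are across peaks of single libraries, and the points of a pair can share lane and control library.

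Many of the strongest peaks of both classes lay close to a peak of the other side. Whether such neighbours were the same peak with another center or separate peaks was not tested. The median distance from a sperm peak in no tissue to the nearest adult peak center was 4894 bp, 12.9% had one within 1000 bp, and 50.5% had one within 5000 bp. For the 542 germline peaks of the highest score decile, the median was 446.5 bp, and 468 (86.3%) had an adult center within 1000 bp. Counting adult centers within 1000 bp as shared left 69.2% of the lowest sperm decile and 0.767% of the highest without a counterpart. With 5000 bp, a distance added after the data were seen, 38.0% of the lowest decile and 0.0104% of the highest had none, which is a single peak of 9651. Sperm peaks far from any adult peak were therefore found almost entirely among low scores.

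In the tissues the share of peaks far from any sperm center was also lower in the highest score decile than in the lowest, with a weaker gradient. With 5000 bp it was 5.90% in the lowest decile and 0.175% in the highest in eye, and 15.2% and 3.06% in brain. Far brain peaks were thus not confined to low scores. Loci in all 4 tissues and not in sperm had a median distance of 1122 bp to the nearest sperm center, and 46.7% had one within 1000 bp. In eye, the share of the highest score decile with no sperm peak was 19.7% by overlap, 3.95% with centers within 1000 bp counted as shared, and 0.175% with 5000 bp. In brain it was 26.4%, 10.5% and 3.06%. With centers within 1000 bp counted as shared, 26283 sperm peaks had no adult counterpart and 2117 loci in all 4 tissues had no sperm counterpart, and with 5000 bp these numbers were 14930 and 1261.

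**Figure D3:**
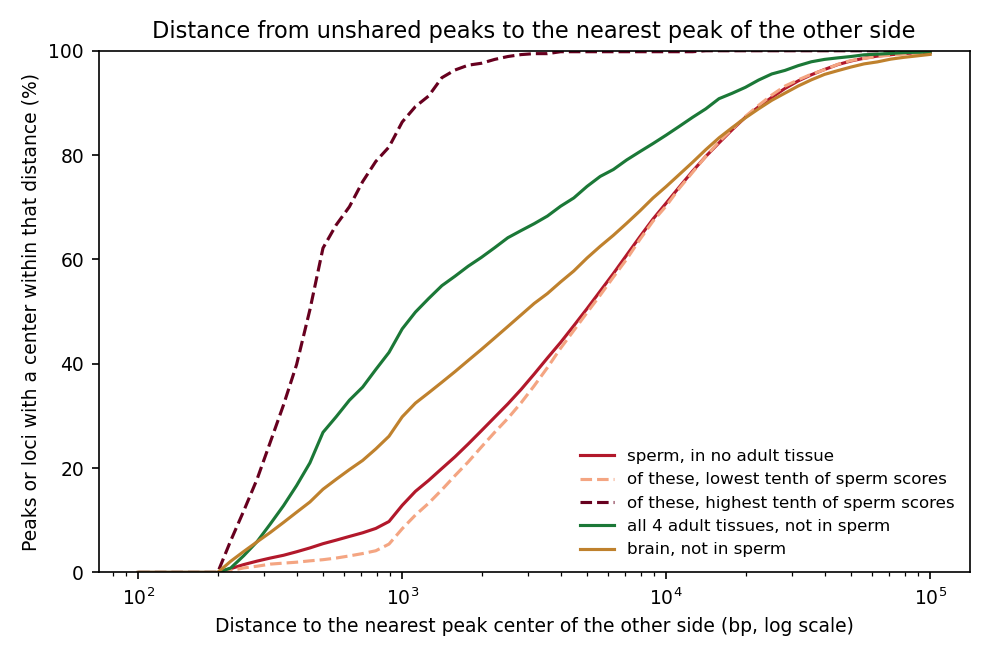
Cumulative percentage of unshared peaks or loci (y axis) with a peak center of the other side within a given distance (x axis, bp, log scale). Of the sperm peaks in no adult tissue, 12.9% had an adult center within 1000 bp, and of those in the highest score decile 86.3%. Of the loci in all 4 tissues and not in sperm, 46.7% had a sperm center within 1000 bp.

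The highest-scoring peaks of each class that lay more than 1000 bp from the other side show the same neighbourhood. The strongest such sperm peak, at chr15:13447207-13447407 (Zv9), had a score of 710 and the nearest adult centers at 1536 bp in liver, 1538 bp in eye, and 1543 bp in both brain and heart. It was present in mbt, 3dpf and MTX-3dpf and not in one-cell embryos. The sperm peak at chr2:33454631-33454831, with a score of 503, was present in all 4 embryo lists, and its nearest adult center was 2929 bp away, in brain. The peak at chr17:197724-197924 (score 532) was found in MTX-3dpf only, the peak at chr3:1837250-1837450 (score 464.5) in mbt and MTX-3dpf, and a peak on the unplaced sequence Zv9_NA205 from 7952 to 8152 (score 684) in no embryo list.

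The converse loci were among the best-ranked of every tissue. The locus at chr19:48328434-48328649 stood at a mean within-list score percentile of 99.6 over eye, brain, heart and liver, had its nearest sperm center 1114 bp away, and was in no embryo list. The locus at chr3:1916718-1916982 (mean percentile 99.3, sperm center at 1661 bp) and the locus at chr16:19911608-19912020 (99.2, 1826 bp) were both absent from one-cell embryos and present in mbt, 3dpf and MTX-3dpf. The locus at chr13:15287077-15287462 was found in MTX-3dpf only, and the locus at chr19:14194637-14195031 in one-cell embryos and MTX-3dpf. The list was extended to the 50 strongest of each class among members more than 1000 bp from the other side. Of these, 50 of 50 sperm peaks and 48 of 50 adult loci had a peak of the other side within 5000 bp, and 33 and 39 had a member of the opposite class there. Among the 500 strongest of each, also more than 1000 bp from the other side, the shares within that distance were lower. There 57.4% of the sperm peaks and 63.2% of the adult loci had a peak of the other side, and 16.8% and 34.4% a member of the opposite class. Of all 26283 germline peaks more than 1000 bp from an adult center, 11353 had one within 5000 bp. The same held for 837 of the 1642 somatic loci more than 1000 bp from a sperm center. How many of all these had a member of the opposite class there was not counted.

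Germline peaks were mostly present in early embryos. Of the 30164 sperm peaks in no adult tissue, 79.8% (95% CI 79.4 to 80.3) were in the one-cell list, 75.5% in mbt and 56.0% in 3dpf. Over all sperm peaks these shares were 80.9%, 85.7% and 77.3%, and over the sperm peaks in all 4 tissues 83.3%, 95.02% and 92.8%. The class was thus near the whole sperm list at the one-cell stage and well under it at 3dpf. The one-cell, mbt and 3dpf lists held 178587, 122477 and 101868 peaks, and the part of their length in these shares was not tested. Peaks present in one-cell and mbt and not in 3dpf made up 24.4% of the germline class (7357 peaks), and 1977 germline peaks (6.55%) lay in none of the 4 embryo lists. The one-cell and mbt libraries shared the lane and control library of sperm, whereas 3dpf had another lane and control. The part of these in the overlap was not tested.

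At equal numbers the germline class was less often present in embryos than the sperm list as a whole at every stage. It was found in 51.3% in one-cell, 58.5% in mbt and 40.0% in 3dpf, against 60.9%, 84.0% and 71.9% for all top sperm peaks and 66.7%, 93.9% and 87.6% for those in all 4 tissues. The germline share was then highest in mbt and no longer in one-cell. Within deciles of the sperm score, with all peaks, germline peaks were less often in 3dpf than the sperm peaks in all 4 tissues in all 10 deciles, by 7.76 to 61.3 percentage points. In one-cell embryos they were more often present than the common peaks in 6 of the 10 deciles, by up to 29.8 points in the lowest decile, and less often by up to 40.9 points in the highest. In the lowest decile, 76.5% of the germline peaks and 46.6% of the common peaks were in the one-cell list. In the highest, these shares were 44.6% and 85.5%.

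Germline peaks far from adult peaks were the ones most often seen at the one-cell stage. Those more than 5000 bp from any adult center were in the one-cell list in 85.9%, in mbt in 81.3% and in 3dpf in 56.0%. Those within 1000 bp of an adult center were found in 56.1%, 53.1% and 51.6%, nearly alike at the 3 stages. Over all sperm peaks the shares were 80.9%, 85.7% and 77.3%. The median sperm score was 22.65 for the far peaks and 51.5 for those within 1000 bp. The part of the score in this difference was not tested, and the split was not repeated at equal numbers.

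The somatic class followed another order over the embryo lists, of which 3dpf had another lane and control library than one-cell and mbt. The part of these in the order was not tested. Of the 3080 loci in all 4 tissues and not in sperm, 34.0% were in one-cell embryos (95% CI 32.3 to 35.7), 38.6% in mbt (36.9 to 40.3) and 55.6% in 3dpf (53.9 to 57.4). Over all 38270 loci in all 4 tissues the shares were 80.0%, 90.7% and 90.5%. A locus present in 3dpf and not in one-cell or mbt was found in 531 cases (17.2%), and 758 loci (24.6%) were in no embryo list. At equal numbers the shares were 11.2%, 33.6% and 39.5%, against 55.6%, 81.5% and 78.1% for all loci in all 4 tissues. The germline and somatic classes were thus far apart at the one-cell stage. In 3dpf their shares were like, 56.0% against 55.6% with all peaks and 40.0% against 39.5% at equal numbers. Their bases differed, at 77.3% of all sperm peaks and 90.5% of all loci in all 4 tissues in 3dpf. At equal numbers the bases were 71.9% and 78.1%. Each class lay under its own base, so like shares are not the same shortfall. With centers within 5000 bp counted as shared, the germline class was found in 95.9% in one-cell, 89.7% in mbt and 65.5% in 3dpf, against 59.2%, 35.1% and 46.7% for the somatic class. The order of the germline shares from one-cell to 3dpf and the gap between the classes at the one-cell stage were kept there. The somatic class was then more frequent at the one-cell stage than in 3dpf, and the classes were no longer alike in 3dpf. They were also less alike in 3dpf with centers within 1000 bp (59.3% against 53.7%) and without brain (65.5% against 56.3%). The germline order was not kept at equal numbers or with scores at or above the list median, where mbt had the highest share.

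Loci marked in brain only and absent from sperm were rare in embryos, with 17.8% in one-cell, 11.0% in mbt, 17.3% in 3dpf and 69.7% in none of the 4 embryo lists. Sperm peaks shared with brain only were found in 83.0%, 85.6% and 80.2% at the same stages, close to the 80.9%, 85.7% and 77.3% of all sperm peaks. At equal numbers they were found in 60.5%, 73.4% and 58.0%, against 60.9%, 84.0% and 71.9% for all top sperm peaks. Methotrexate-treated larvae had 44.3% of the germline class, against 56.0% in untreated 3dpf, where all sperm peaks gave 70.5% and 77.3%. The MTX-3dpf list held 91872 peaks, against 101868 in 3dpf, and the part of this in the shares was not tested. At equal numbers the germline shares were closer, at 37.2% and 40.0%, where all top sperm peaks gave 68.7% and 71.9%. The following values are again with all peaks. For the somatic class MTX-3dpf had 54.8% and untreated 3dpf 55.6%, where all loci in all 4 tissues gave 89.1% and 90.5%.

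**Figure D4:**
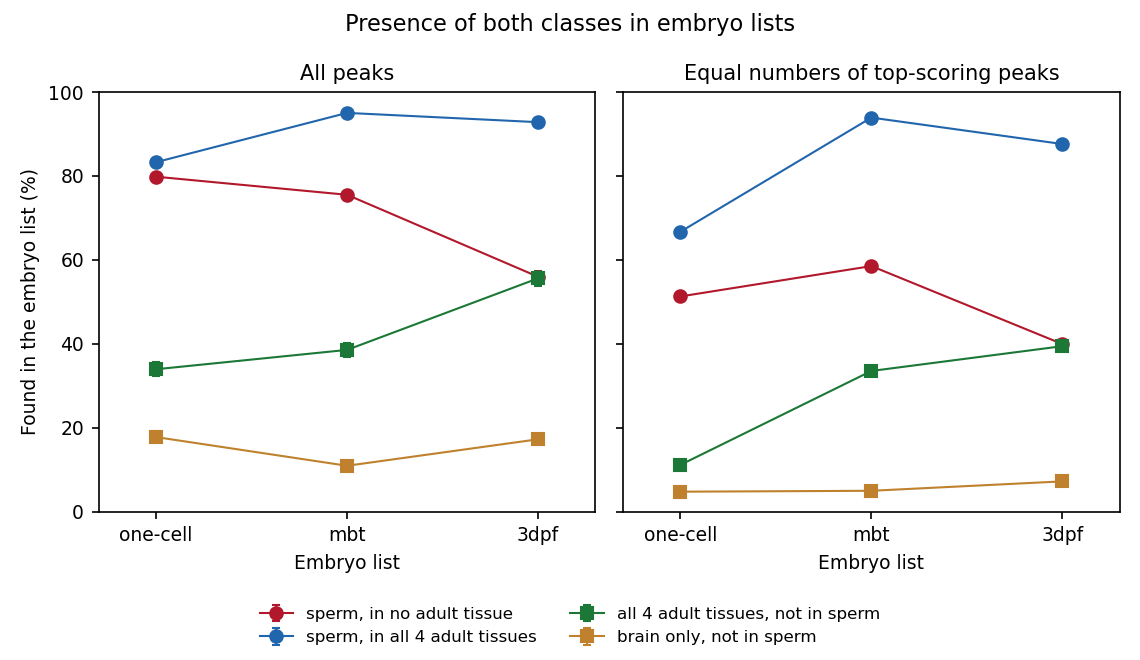
Percentage of each class (y axis) found in the one-cell, mbt and 3dpf lists (x axis), with all peaks (left) and equal numbers (right). Bars are Wilson 95% intervals, mostly smaller than the points. Sperm peaks in no adult tissue were in 79.8%, 75.5% and 56.0%, and loci of all 4 adult tissues not in sperm in 34.0%, 38.6% and 55.6% with all peaks.

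Across the 25 chromosomes, the share of sperm peaks in no adult tissue ranged narrowly, and chromosome 4 lay apart from the others for the somatic class. The germline share was highest on chromosome 13 (35.8%, 95% CI 34.2 to 37.4) and lowest on chromosome 4 (25.5%, 95% CI 24.1 to 26.9), against 31.7% over the other 24. Without brain, the share on chromosome 4 was 48.5%, against 51.4% over all sperm peaks. At equal numbers neither stood out, with 19.0% on chromosome 13 and 20.7% on chromosome 4, and the highest and lowest were chromosome 19 (23.2%) and chromosome 15 (17.5%).

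On chromosome 4, 228 of the 1641 loci in all 4 tissues (13.9%, 95% CI 12.3 to 15.7) were absent from sperm, against 7.64% over the other 24 chromosomes, among which chromosome 12 was highest with 10.8% and chromosome 21 lowest with 5.25%. Each tissue list had it as well, but these are not separate checks. All 4 were set against the same sperm library, and the loci in all 4 tissues are among the peaks of each. The share of chromosome 4 peaks absent from sperm was 37.8% in brain, 22.2% in eye, 22.4% in heart and 21.2% in liver. The highest values on any other chromosome were 27.0%, 17.1%, 16.8% and 16.5% in the same tissues. At equal numbers 682 of the 1482 chromosome 4 loci in all 4 tissues (46.0%) had no peak in the cut sperm list. On the other chromosomes this share was 12.8% to 25.6%. The cut kept 1369 of the 3783 sperm peaks of chromosome 4, so such loci can overlap a lower-scoring sperm peak. The part of the cut in this rise was not tested. The long arm of zebrafish chromosome 4 is known to be late replicating, rich in repeats and poor in conventional genes.

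The difference lay beyond the first 25 Mb of chromosome 4, a boundary chosen with earlier results known. Beyond it, 15.4% of the loci in all 4 tissues (206 of 1341, 95% CI 13.5 to 17.4) were absent from sperm, against 7.33% up to it (22 of 300, 95% CI 4.89 to 10.9). Counting loci of any tissue, these shares were 42.6% and 17.9%, and 1125 of the 1691 absent loci beyond the boundary were marked in brain only. Sperm peaks went the other way. Beyond 25 Mb, 19.1% of them lay in no adult tissue (538 of 2813, 95% CI 17.7 to 20.6), against 43.8% up to it (425 of 970, 95% CI 40.7 to 47.0).

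**Figure D5:**
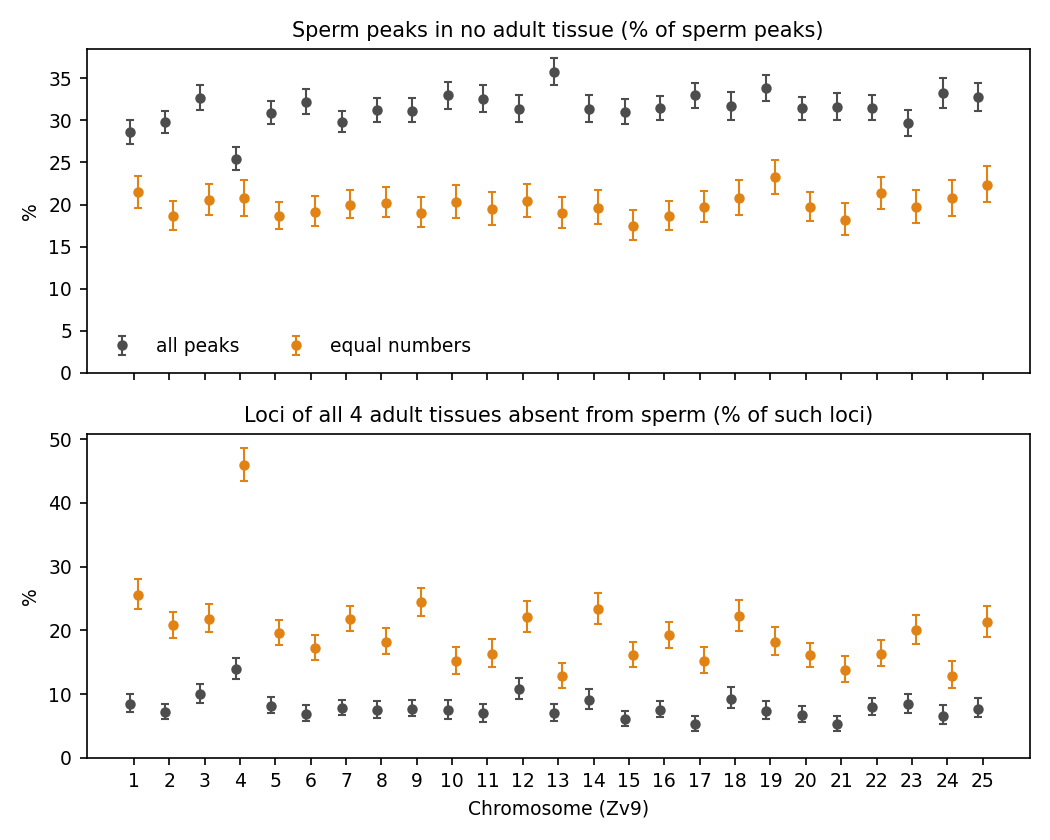
Percentage of sperm peaks in no adult tissue (top) and of loci in all 4 adult tissues that were absent from sperm (bottom) on each of the 25 chromosomes (x axis), with all peaks (grey) and equal numbers (orange). Bars are Wilson 95% intervals. On chromosome 4 the lower panel has 13.9% with all peaks and 46.0% at equal numbers, above every other chromosome.

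In windows of 1 Mb, both classes were counted. The germline class holds 30164 peaks of 1 list and the somatic class 3080 loci required in all 4 tissues. Lower somatic counts per window are therefore built in. Every one of the 1369 windows that held peaks had germline peaks, from 2 to 62 with a median of 19, whereas 292 windows had no locus of the somatic class, whose median was 2. The windows with the most germline peaks were chr22:3000001-4000000 with 62 of 146 sperm peaks (42.5%), chr3:8000001-9000000 with 58 of 167, chr17:53000001-54000000 with 58 of 156, chr17:3000001-4000000 with 56 of 132, and chr22:1000001-2000000 with 55 of 173. These were windows dense in sperm peaks. Across windows the germline count followed the number of sperm peaks (Pearson's r = 0.843 over 1369 windows, which share the sperm library). Germline peaks are a part of the sperm peaks counted, so a positive r is built into this comparison.

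The windows with the largest germline share, among those with at least 30 sperm peaks, were others. In chr15:19000001-20000000, 26 of 42 sperm peaks (61.9%) lay in no tissue. The next 4, on chromosomes 8, 24, 13 and 7, had between 60.5% and 61.8%, with 34 to 38 sperm peaks each, and the median window had 31.7%. The share was higher in windows with few sperm peaks, being 36.7% in the 350 windows with the fewest (8 to 41) and 29.1% in the 334 with the most (90 to 193). The smallest share, added after the values were seen, was also on chromosome 4, in chr4:44000001-45000000, with 3 of 61 sperm peaks (4.92%, 95% CI 1.69 to 13.5).

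All 5 windows with the most somatic loci were on chromosome 4. The window chr4:59000001-60000000 had 23 such loci of 108 in all 4 tissues, and chr4:39000001-40000000 had 17 of 34. The other 3 were chr4:58000001-59000000 with 17 of 106, chr4:60000001-61000000 with 14 of 79, and chr4:40000001-41000000 with 13 of 33. Both classes were only loosely related across windows (r = 0.32 for their counts, 0.36 without chromosome 4), and their shares were not (Spearman's rho = 0.04 over 1285 windows).

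Germline peaks followed one another along the chromosome little more often than their share of the list. After a sperm peak in no tissue, the next sperm peak was also in no tissue in 33.8% of cases, against 31.3% over the list. Of the germline peaks, 55.0% stood in runs of 2 or more consecutive sperm peaks in no tissue, and 328 runs had 5 or more. The longest run held 11 sperm peaks over 183337 bp at chr24:27911094-28094430, with scores from 7.63 to 384. All 11 were in the one-cell list, 10 in mbt and 5 in 3dpf. Each of the 4 tissues had 1 peak of its own in that stretch, between the sperm peaks, whereas the one-cell list had 28 and mbt 16.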

How the data were processed

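The authors captured methylated DNA with a methyl-CpG binding domain protein, sequenced it as paired ends, aligned it to Zv9 with BWA 0.5.8c, and called peaks with MACS2 2.0.10.20120703 against methylation-poor libraries, which were of brain for the samples of lanes 4 and 5. The deposited lists hold intervals of 201 bp around peak centers and, as deposited by the authors, a score without a unit, and carry no read depth. Overlaps and distances were computed with Python 3.11.15, NumPy 2.4.6 and pandas 2.3.3, and figures were drawn with matplotlib 3.10.9. The functions recovered all planted classes in simulated lists.

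Intervals sharing 1 bp or more were counted as overlapping. Windows started at multiples of 1 Mb. Regions named were the 5 highest-scoring peaks or loci of each class more than 1000 bp from the other side, the 5 windows with the most of each class or the largest germline share, the extreme chromosomes and the longest run. Members, lists and tests were chosen with earlier results of these data known. Alternatives were equal numbers of peaks, scores at or above the median, an overlap of 100 bp, centers within 1000 or 5000 bp, merged peaks, numbered chromosomes, windows of 500 kb or 2 Mb, and tissues left out. Genes, sequence content and the methylation-poor libraries were not analysed here.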

Additional observations from a re-analysis of the deposited data

Results flagged for a closer look

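Among the 4 adult tissues, brain lay far from eye, heart and liver by Dixon's ratio on 9 of 12 measures. These were its number of peaks and others of its relation to sperm. Chance gives 0.6 on average, but the measures come from the same lists and depend on one another. Setting 9 against 0.6 is therefore no test. It had 79008 peaks, against 45785 to 50170 in the others, and held 64.9% of the sperm peaks, against 40.6% to 44.7%. Of its peaks 20.8% were absent from sperm, against 14.0% to 14.5%. Of these, 20.1% were in all other 3 tissues (45.1% to 49.1% elsewhere), 66.9% were in no other tissue (5.83% to 9.38%), and 57.0% were in no embryo list (29.4% to 31.3%). Their median distance to a sperm peak was 2885 bp, against 1006 to 1107.5 bp. On chromosome 4, 37.8% of the brain peaks were absent from sperm, against 21.2% to 22.4%. At equal numbers 38.8% of the brain peaks absent from sperm were in no other tissue, against 5.43% to 7.76%. The other 3 measures were taken at equal numbers too, and there brain lay closer to the others. Of its peaks 33.6% were then absent from the cut sperm list, against 29.2% to 31.1%. Of these, 45.7% were in all other 3 tissues, against 49.7% to 52.5%, and 63.0% in no embryo list, against 50.1% to 52.9%. Brain was the only tissue sequenced in both lanes, and the part of this in these values was not tested.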

How the results depend on the processing

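Of the values recomputed under other settings, 85 stayed within the counting error of a share or within 1.5 times a count, and 64 did not. Merging peaks changed nothing, and keeping the 25 numbered chromosomes moved no value past these bounds. In the following, counts are given first for sperm peaks in no adult tissue (30164 as reported), and shares are given for the one-cell, mbt and 3dpf lists.

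At equal numbers, which hold fewer peaks by construction, there were 9100 sperm peaks in no tissue (51.3%, 58.5% and 40.0% in embryos) and 6992 loci in all 4 tissues absent from sperm (11.2%, 33.6% and 39.5%). Peaks absent from the cut sperm list then numbered 14222 in eye, 13398 in heart and 13375 in liver. These peaks and the 6992 loci can overlap lower-scoring sperm peaks outside the cut. Against the complete sperm list, the top peaks absent numbered 6650 in eye, 6023 in heart and 5994 in liver. The top sperm peaks against the complete adult lists gave 3136. With scores at or above the list median, also fewer peaks by construction, there were 18721 sperm peaks in no tissue (76.6%, 87.1% and 55.2%) and 15939 in all 4. The somatic class was then found in 28.1% and 55.1% in one-cell and mbt. At equal numbers and with this score cut, the germline share was highest in mbt rather than in one-cell.

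With centers within 1000 bp, a looser criterion, the germline shares were 89.8%, 83.4% and 59.3% and the somatic ones 41.8%, 33.6% and 53.7%. Peaks absent from sperm numbered 3346 in eye, 3808 in heart and 3690 in liver. With 5000 bp, chosen after seeing the data, there were 14930 sperm peaks in no tissue (95.9%, 89.7% and 65.5%), 57443 in all 4 and 1261 somatic loci (59.2%, 35.1% and 46.7%), and 1215 eye, 6533 brain, 1505 heart and 1360 liver peaks absent from sperm. With an overlap of 100 bp, the germline shares were 72.5%, 67.6% and 52.8%, and the somatic ones 30.5% in one-cell and 52.0% in 3dpf. The somatic shares at one-cell and 3dpf thus change order only with 5000 bp. The place of mbt between them was less stable. Its somatic share fell under that of one-cell with 1000 bp as well as with 5000 bp. With scores at or above the list median it was 55.1%, close to the 54.7% of 3dpf. Counts of both classes over windows had r = 0.16 at equal numbers, 0.39 in windows of 2 Mb and 0.26 in windows of 500 kb.

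Leaving out 1 tissue gave 30331 to 49570 sperm peaks in no tissue, with 79.5% to 81.1%, 75.4% to 79.5% and 56.0% to 65.5% in embryos, the highest in each case without brain. The somatic class was then found in 29.95% to 33.8% in one-cell and 34.9% to 38.2% in mbt, the lowest without brain. Without brain, chromosome 4 had 17.3% of the loci absent from sperm and 48.5% of the sperm peaks in no tissue. No paired analysis was possible because each condition had 1 library.

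Peak lists hold no read depth, so a region without a peak cannot be told from one under the calling threshold. Low-scoring peaks made up most of the germline class.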

Other observations

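Peaks on sequences not placed on a chromosome followed the numbered chromosomes loosely. Of the 4163 sperm peaks there, 1158 (27.8%, 95% CI 26.5 to 29.2) were in no adult tissue, and of the 1842 loci in all 4 tissues, 193 (10.5%, 95% CI 9.16 to 12.0) were absent from sperm.

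Sperm peaks shared with eye, heart and liver but not with brain were less often in the one-cell list than those shared with brain, heart and liver but not with eye, 58.6% of 2051 against 85.4% of 3033. In mbt these shares were 77.9% and 92.9%, and in 3dpf 75.7% and 89.4%. Over all sperm peaks the shares were 80.9%, 85.7% and 77.3%. At equal numbers the one-cell shares were 49.4% of 3030 and 65.6% of 553, against 60.9% of all top sperm peaks. The median sperm scores were 98.8 and 142 with all peaks, and 187 and 176 at equal numbers. Brain, unlike eye, joined reads of the lane that held one-cell. The part of lane and score in these shares was not tested.

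In MTX-3dpf at equal numbers the germline class was found in 37.2%, against 40.0% in untreated 3dpf, while the somatic class was found in 41.8%, against 39.5%. Over all top sperm peaks the shares were 68.7% in MTX-3dpf and 71.9% in untreated 3dpf, and over all loci in all 4 tissues 76.6% and 78.1%. Each list comes from 1 library.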
